A study of Mus musculus with 2 samples.

Results

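miR-486 is a microRNA (miRNA) of red blood cell precursors and muscle, made from a hairpin inside the erythroid gene Ank1. All reads that the deposited table assigns to the miRNA class under the name mmu-mir-486 were taken as its products, with both arms and all read ends kept. These were 89 of the 12128 distinct miRNA-class sequences and 1 of the 597 miRNA names. The data are small RNA reads of mouse fetal liver from 1 library of Ago2ADH animals and 1 library of wild type animals, both of strain B6/129 at embryonic stage E18.5. Ago2ADH is a form of Argonaute 2 without catalytic (slicing) activity, and no other allele or treatment is named for either library. Neither the number of fetuses in a library nor their sex is given in the sources used here. With 1 library per genotype no difference has a replicate check, and an effect of the genotype and a difference between these particular livers or library preparations cannot be told apart.

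A miRNA hairpin is cut by Drosha and Dicer into a short duplex of a 5p and a 3p strand. One strand, the guide, is kept in an Argonaute protein, and the other, the passenger, is lost. Argonaute 2 is the mammalian Argonaute that can cut an RNA that pairs to its guide along its length, and a passenger strand that pairs well can itself be such an RNA. miR-486 is known as an abundant miRNA of late erythroid cells, with the 5p strand as the usual guide. The fetal liver is the main site of red cell formation at this stage, alongside its hepatocytes.

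The Ago2ADH library held 7046197 reads and the wild type library 7599870. Of these, 2811227 in Ago2ADH and 2808232 in wild type were of the miRNA class, which makes 3 reads equal to 1.07 RPM (reads per 1000000 miRNA reads) in either library. PCR amplified these reads without molecular identifiers, so the 95% intervals below cover counting error only. miR-451-5p, the miRNA whose maturation is known to need slicing by Argonaute 2, had 4368 reads in Ago2ADH, against 326796 in wild type. Muscle, the other tissue known for miR-486, left few mRNA fragments in either library. The 9 muscle markers summed to 47 reads in Ago2ADH and 75 in wild type, 8 of them had any read, and no read was listed under Myog. Of the muscle miRNAs, miR-206-3p had 133 reads in Ago2ADH and 425 in wild type, and miR-1-3p had 189 in Ago2ADH and 244 in wild type. miR-133a-3p had 513 in Ago2ADH and 457 in wild type, and miR-499-5p had 467 in Ago2ADH and 465 in wild type. The part of muscle in the miR-486 values was not tested.

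The main reads that match the miR-486 hairpin exactly are shown first, because the results on strands and read ends turn on them. In the first 5 lines the capitals mark the seed, bases 2 to 8, through which a miRNA recognises its targets. All sequences are reads of the deposited table written 5′ to 3′ as DNA.
miR-486-5p, 21 nt: tCCTGTACtgagctgccccga
miR-486-5p, 22 nt: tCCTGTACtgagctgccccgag
miR-486-3p, 21 nt: cGGGGCAGctcagtacaggat
miR-486-3p, 22 nt: cGGGGCAGctcagtacaggatg
miR-486-3p, 20 nt: cGGGGCAGctcagtacagga
The next lines repeat the main 5p and 3p reads with the bases in capitals that pair with the other strand.
main 5p read, paired bases: TCCTGTACTGAGCTGCCCCGa
main 3p read, paired bases: CGGGGCAGCTCAGTACAGGAt
Bases 1 to 20 of the main 5p read are the reverse complement of bases 1 to 20 of the main 3p read, so the duplex has 20 Watson-Crick pairs in a row and 1 unpaired base at each 3′ end. Of 1679 mature mouse miRNA names listed by RefSeq (GRCm38.p6), 0 others have the 5p seed, and 1 other, mmu-miR-326-5p, has the 3p seed. The strands of Mir3107, a hairpin described below, share both seeds and are not counted among these others.

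In GRCm38 the Mir486 hairpin lies on the plus strand of chromosome 8 (chr8:23142555-23142682), within Ank1 (chr8:22974844-23150497, plus strand). Ank1 encodes ankyrin-1, which ties the red cell membrane to its spectrin skeleton. The hairpin is intronic in 15 of the 15 Ank1 transcripts that span it and exonic in 0. Mir3107 (also called mir-486b) lies on the opposite strand of the same site (chr8:23142573-23142662, minus strand), and because the main strands are reverse complements of each other over the duplex, its transcript gives strands of the same sequence. The main 5p read lies at chr8:23142587-23142607 and the main 3p read at chr8:23142629-23142649. Positions below count from 1 at the first base of the main 5p read, and the main 3p read then starts at position 43.

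The 3p strand of miR-486 was much more abundant in Ago2ADH, while the 5p strand was somewhat less abundant. miR-486-3p had 9083 reads (3231 RPM) in Ago2ADH and 1842 reads (656 RPM) in wild type. That is 4.93-fold more in Ago2ADH (95% interval 4.68 to 5.18), a log2 ratio of 2.30 (2.23 to 2.37). miR-486-5p had 7562 reads (2690 RPM) in Ago2ADH and 9684 reads (3448 RPM) in wild type (log2 ratio -0.36, interval -0.40 to -0.31). The direction of the 5p strand was not shared by its most abundant read (0.16), and with only reads of 1 genome match, 56 in Ago2ADH and 122 in wild type, its log2 ratio was -1.13. In whole liver, fewer cells that make miR-486 and less of it per cell cannot be told apart.

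In place of a test, an arm with 100 or more reads over both libraries was called higher or lower when its ratio was 2 or more, or 0.5 or less, and the counting interval excluded 1. By this rule 1 of the 2 arms, miR-486-3p, rose and none fell, although its distinct sequences (41 in Ago2ADH, 32 in wild type, log2 ratio 0.40), counted in place of reads, are under the minimum of 100. Across all miRNAs 20 of 353 arms were called higher, a percentage of 5.67, and 3 were called lower, a percentage of 0.85. The log2 ratio of miR-486-3p was the 2nd highest of the 353 arms, whose median was 0.15, and that of miR-486-5p was the 33rd lowest. By number of reads that match the hairpin exactly, miR-486-3p was the 49th most abundant of all arms in Ago2ADH and the 129th in wild type. miR-486-5p was 57th in Ago2ADH and 45th in wild type. These ranks leave out reads with extra 3′ bases, described below, of which miR-486-5p had many. Among arms with 500 or more reads, those with a ratio nearest to that of miR-486-3p were miR-136-5p (log2 ratio 1.70), miR-29b-3p (1.51) and miR-144-3p (1.28). Those nearest to miR-486-5p were miR-369-5p (-0.35), miR-221-3p (-0.37) and miR-337-5p (-0.38).

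The balance between the strands does not depend on how the libraries are scaled. Among reads that match the hairpin exactly, the 3p strand made up 54.6% (Clopper-Pearson 95% interval 53.8 to 55.3) in Ago2ADH, against 15.98% (15.3 to 16.7) in wild type. The log2 odds ratio was 2.66 (2.57 to 2.74). The 3p reads thus outnumbered the 5p reads in Ago2ADH, whereas the 5p reads outnumbered the 3p reads in wild type.

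That change of the larger arm depended on which reads were counted. Many 5p reads carry 1 or 2 extra bases at the 3′ end that are not in the hairpin, and the deposited table leaves such reads outside the miRNA class. With them included, miR-486-5p had 16537 reads in Ago2ADH and 22561 in wild type, and miR-486-3p had 11473 in Ago2ADH and 2313 in wild type. The log2 ratios were -0.45 (-0.48 to -0.42) for 5p and 2.31 (2.24 to 2.37) for 3p. The 3p share was then 40.96% (40.4 to 41.5) in Ago2ADH and 9.30% (8.94 to 9.67) in wild type, a log2 odds ratio of 2.76 (2.69 to 2.83). The 5p strand was therefore the larger in both libraries once these reads counted, with a log2 odds ratio of similar size. The sum over both arms was 28010 reads in Ago2ADH and 24874 in wild type (log2 ratio 0.17), against 16645 in Ago2ADH and 11526 in wild type (0.53) for exact reads. The plot of reads by arm shows the levels with and without the extra bases. All RPM values use the total of miRNA-class reads, which holds no such tailed reads.

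**Figure D1:**
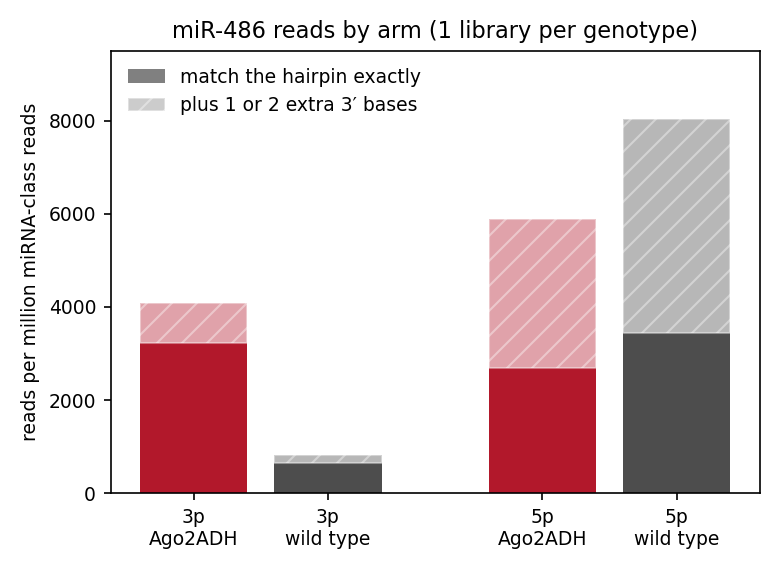
Reads of the miR-486 arms in RPM, for Ago2ADH and wild type (1 library each, no error bars); solid bars are reads that match the hairpin exactly and hatched bars add reads with 1 or 2 extra 3′ bases. Solid 3p bars stand at 3231 RPM in Ago2ADH and 656 RPM in wild type, solid 5p bars at 2690 RPM in Ago2ADH and 3448 RPM in wild type, and with extra bases the 5p bars reach 5882 RPM in Ago2ADH and 8034 RPM in wild type.

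Set beside the other hairpins, miR-486 had one of the largest shifts towards its less used strand. The minor arm of a hairpin was taken as the arm with the smaller sum of the libraries, which for miR-486 is 3p, in the 214 hairpin names that had at least 200 reads and a read on each arm. The minor-arm share was higher in Ago2ADH beyond counting error in 37 of 214 hairpins (percentage 17.3) and lower in 47 (percentage 22), and the median log2 odds ratio was -0.17. miR-486 ranked 4th of the 214, and 2nd, after miR-451 (6.31), among the 37. For miR-451 the 3p reads were similar in number (1053 in Ago2ADH, 990 in wild type). Its 5p reads were far fewer in Ago2ADH (4368, against 326796 in wild type). The 5 hairpins nearest to miR-486 in log2 odds were miR-497 (2.45), miR-496 (2.22), miR-511 (2.17), miR-181d (3.29) and miR-298 (1.98). Each of those 5 had at most 7 minor-arm reads in Ago2ADH and 0 or 1 in wild type, so that its value depends on the 0.5 added to each count, and its interval included 0. The interval of miR-486 rested on 9083 minor-arm reads in Ago2ADH and 1842 in wild type.

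The miR-486 duplex also stood apart in its pairing, which uses the counts only to choose the main read of each arm. Main reads from both arms could be paired for 205 of the hairpin names with RNAduplex. The uninterrupted run of 20 pairs of miR-486 was the longest of the 205, with a median of 9, and its energy of -44.7 kcal/mol was the lowest, with a median of -21.9. None of its pairs was a G-U wobble. The next longest runs were 19 pairs in let-7a, let-7f and let-7b, with 3 or 4 wobble pairs each, and 18 in miR-299 and miR-101a.

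The other hairpins with long runs differed from one another. miR-299, with 18 pairs and no wobble, had a 3p share of 54.4% in Ago2ADH and 27.0% in wild type, a log2 odds ratio of 1.69 (1.57 to 1.81). let-7a had a 3p share of 0.547% in Ago2ADH and 0.340% in wild type (0.69, 0.31 to 1.07). The intervals of let-7f (0.12) and miR-101a (-0.51) included 0, and let-7b had 0 reads of its 3p arm in Ago2ADH and 2 in wild type. Over the 11 hairpins with runs of 16 or more pairs, miR-486 among them, the median log2 odds ratio was 0.43, with 6 higher and 1 lower beyond counting error, beside the 17.3 and 22 percent of all 214 hairpins. It was 0.21 over the 13 hairpins with 13 to 15 pairs (6 higher, 2 lower), -0.22 over the 45 with 10 to 12 (5 higher, 15 lower), and -0.18 over the 136 with 9 or fewer (20 higher, 26 lower). These are descriptions of 2 libraries, and no relation between pairing and strand use was tested.

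**Figure D2:**
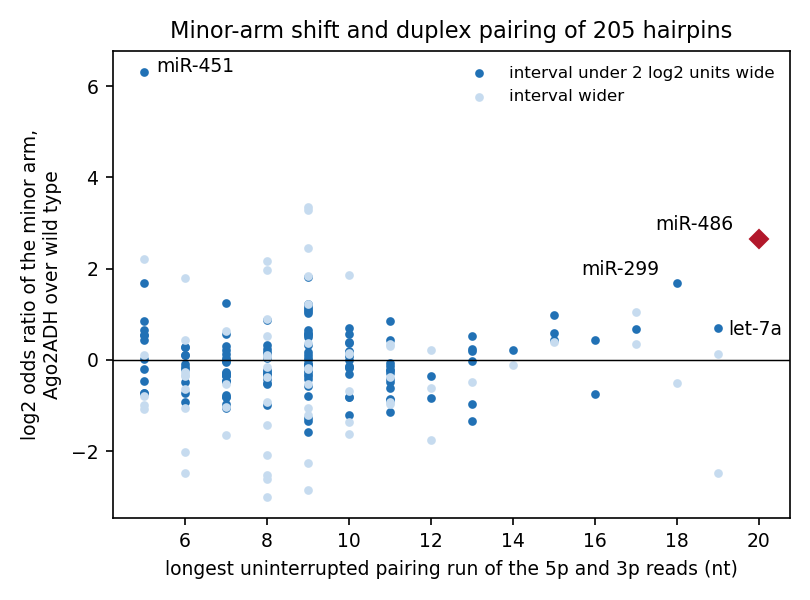
Log2 odds ratio of the minor arm (Ago2ADH over wild type) against the longest uninterrupted run of pairs between the main 5p and 3p reads, for 205 hairpins; dark points have counting intervals under 2 log2 units wide, and the red diamond with its 95% interval is miR-486. miR-486 lies farthest to the right, at 20 pairs and 2.66, with miR-299 at 18 pairs and 1.69, while miR-451 is highest at 6.31 with a run of 5. The main 3p read of miR-451 is only 16 nt long.

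Nearly all exact reads of both arms began at 1 position, and this was so in both libraries. The start at position 1 held 98.6% of the 5p reads in Ago2ADH and 97.9% in wild type. The start at position 43 held 98.3% of the 3p reads in Ago2ADH and 96.8% in wild type. Since the first base sets the seed, nearly all reads of each arm therefore shared the seeds shown above. The only other starts with 50 or more 5p reads were position 3, with 47 reads in Ago2ADH and 74 in wild type, and position 4, with 26 in Ago2ADH and 67 in wild type. An 18-nt read from position 4 to 21 was the single such form with 50 or more reads, at 22 in Ago2ADH and 35 in wild type.

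The 3′ ends were less uniform, and the ends of the 5p strand differed between the libraries. The 21-nt read had 4873 reads in Ago2ADH and 4371 in wild type (log2 ratio 0.16, interval 0.10 to 0.21). The 22-nt read had 2117 reads in Ago2ADH and 4426 in wild type (log2 ratio -1.07, interval -1.14 to -0.99). Thus 1 base separates a form that was slightly more abundant in Ago2ADH from one that was less abundant. The shorter 5p reads of 20, 19, 18 and 17 nt had 212, 78, 35 and 60 reads in Ago2ADH and 287, 130, 58 and 77 in wild type. Of the exact 5p reads with the main start, those ending at position 21 were 65.4% in Ago2ADH and 46.1% in wild type. Those ending at position 22 were 28.4% in Ago2ADH and 46.7% in wild type.

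All the main forms of the 3p strand were more abundant in Ago2ADH, and among the 3 most abundant forms the ratio was larger the shorter the read. The 22-nt 3p read had 2342 reads in Ago2ADH and 628 in wild type (log2 ratio 1.90, interval 1.77 to 2.03). For the 21-nt 3p read there were 5506 reads in Ago2ADH and 979 in wild type (log2 ratio 2.49, interval 2.39 to 2.59). The 20-nt 3p read had 769 reads in Ago2ADH and 107 in wild type (log2 ratio 2.84, interval 2.55 to 3.15). The still shorter reads had log2 ratios of 2.38 at 19 nt (151 reads in Ago2ADH, 29 in wild type), 1.91 at 18 nt (45 in Ago2ADH, 12 in wild type) and 1.52 at 17 nt (46 in Ago2ADH, 16 in wild type). On both strands the longer of the main ends thus had the smaller share in Ago2ADH. Reads ending at position 64 were 26.5% of exact main-start 3p reads in Ago2ADH and 35.4% in wild type, those ending at 63 were 62.01% in Ago2ADH and 55.1% in wild type, and those ending at 62 were 8.61% in Ago2ADH and 6.001% in wild type.

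The mean length of exact miR-486-5p reads with the main start was 21.2 nt in Ago2ADH and 21.4 nt in wild type, a difference of -0.18 nt. Reads with extra 3′ bases were left out of these means for all arms. Over 192 arms with 500 or more reads in each library the median difference was 0.0133 nt, and miR-486-5p had the 3rd lowest value, after miR-451-5p (-2.26) and miR-299-5p (-0.19). The difference for miR-486-3p was -0.09 nt, the 8th lowest. Spread over animals is not known for these lengths.

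Outside the 2 strands the hairpin left few reads. No read lay within the loop in either library, and positions 29 to 40 were not covered by any read. The stretch after the 3p strand gave 19 reads in Ago2ADH and 19 in wild type. Because a read's arm was set by its middle, they are counted in the exact 3p totals. They are also among the 3p reads that match Mir486 alone, given below. The main read of this stretch is shown because it begins at the base after the 22-nt 3p read.
read after the 3p strand, positions 65 to 84: cgtcagggtgggagacaacg
It had 12 reads in Ago2ADH and 16 in wild type. The equal numbers of flank reads stand beside a hairpin total with a log2 ratio of 0.53, but 19 reads against 19 leave an interval of -0.999 to 0.996. The plot of coverage along the hairpin shows the blocks of the strands and the uncovered stretch between them.

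**Figure D3:**
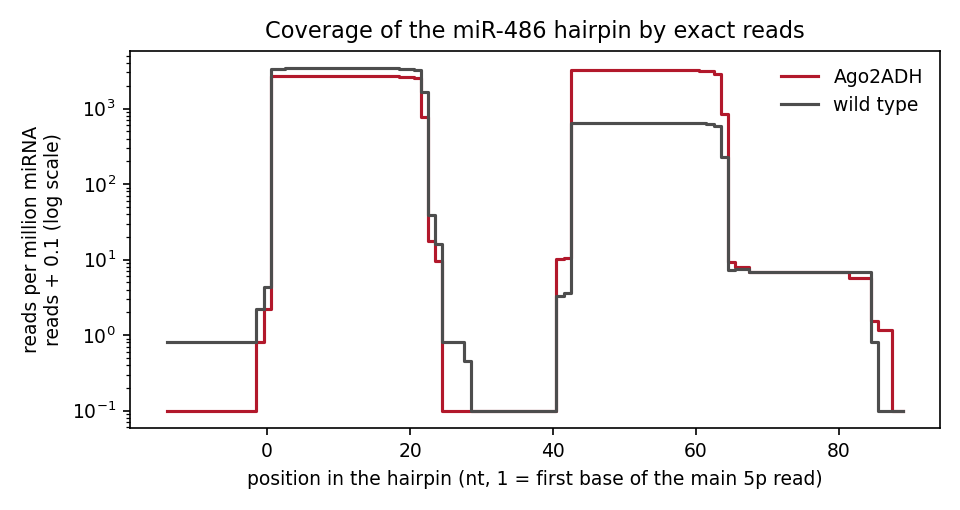
Reads that match the miR-486 hairpin exactly, in RPM plus 0.1 on a log axis, at each position counted from the first base of the main 5p read, for Ago2ADH (red) and wild type (grey). The 5p block (positions 1 to 22) is slightly lower in Ago2ADH, the 3p block (43 to 64) is higher in Ago2ADH (3231 RPM, against 656 RPM in wild type, over the arm), and positions 29 to 40 of the loop between them have 0 reads.

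Extra bases at the 3′ end were a major feature of the 5p strand. The sequences below are the most abundant such reads of each strand, with the extra bases in capitals.
5p, ends at position 22, plus T: tcctgtactgagctgccccgagT
5p, ends at position 21, plus T: tcctgtactgagctgccccgaT
5p, ends at position 22, plus A: tcctgtactgagctgccccgagA
5p, ends at position 21, plus C: tcctgtactgagctgccccgaC
5p, ends at position 21, plus A: tcctgtactgagctgccccgaA
3p, ends at position 63, plus T: cggggcagctcagtacaggatT
Of the 5p reads with up to 2 extra bases counted, 54.3% (53.5 to 55.0) carried them in Ago2ADH and 57.1% (56.4 to 57.7) in wild type. These shares were the 8th highest of the 192 arms in Ago2ADH and the 5th highest in wild type, and the medians over arms were 14.5% in Ago2ADH and 14.9% in wild type. The 3p strand was tailed in 20.8% of reads in Ago2ADH and 20.4% in wild type.

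The tailed share of the 5p strand thus differed by -2.80 percentage points, while the added base differed by more. Among 5p reads with at most 1 extra base, a single T was carried by 21.98% (21.3 to 22.7) in Ago2ADH, against 35.9% (35.3 to 36.6) in wild type. The difference of -13.96 percentage points was the lowest of the 192 arms, over which a single T had a median of 4.46% in Ago2ADH and 4.34% in wild type. A single C was carried by 9.83% in Ago2ADH and 4.51% in wild type, a difference of 5.32 points that was the highest of the arms. Most of these reads ended at position 21 before the C (1337 in Ago2ADH, 857 in wild type), an end more common in Ago2ADH. Within that end C was on 13.3% (12.6 to 14.0) of reads in Ago2ADH and 10.9% (10.2 to 11.6) in wild type. A C added after position 22 would read as base 23 of Mir3107. A single A was carried by 13.8% in Ago2ADH and 10.6% in wild type, the 3rd highest difference at 3.26 points. A single G was found on only 9 reads in Ago2ADH and 4 in wild type. However, a G added after position 21 would read as the hairpin's own base 22, and one added after position 22 as base 23 of Mir486. Such a G cannot be told apart from the hairpin's own base.

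The lower share of T was found on reads that end at position 22 and not on those that end at 21. The 22-base stretch plus T had 1178 reads in Ago2ADH and 5946 in wild type (log2 ratio -2.34, interval -2.43 to -2.25). In wild type this was the most abundant of all 5p reads, with 26.9% of those with the main start, while in Ago2ADH it had 7.24%. The 21-base stretch plus T had 1767 reads in Ago2ADH and 967 in wild type (log2 ratio 0.87, interval 0.75 to 0.98). Within each end, T was on 21.7% of reads ending at 22 in Ago2ADH and 44.9% in wild type, and on 17.6% of reads ending at 21 in Ago2ADH and 12.3% in wild type.

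The read numbers of other extra bases differed in both directions on either end. On reads ending at 21, A was on 1117 reads in Ago2ADH and 411 in wild type (log2 ratio 1.44), and C on 1337 in Ago2ADH and 857 in wild type (0.64). On the same end, CT was on 240 in Ago2ADH and 428 in wild type (-0.84), TT on 189 in Ago2ADH and 242 in wild type (-0.36), AT on 73 in Ago2ADH and 190 in wild type (-1.38), and CA on 23 in Ago2ADH and 55 in wild type (-1.26). On reads ending at 22, A was on 745 reads in Ago2ADH and 1596 in wild type (-1.10), while TA was on 624 in Ago2ADH and 267 in wild type (1.22) and TT on 493 in Ago2ADH and 737 in wild type (-0.58). AA on this end was on 187 in Ago2ADH and 112 in wild type (0.74), and AT on 45 in Ago2ADH and 138 in wild type (-1.62). With tailed and untailed reads together, those whose hairpin-encoded part ended at 21 numbered 10062 in Ago2ADH and 7885 in wild type, which is 61.8% of main-start 5p reads in Ago2ADH and 35.7% in wild type. Those that ended at 22 numbered 5425 in Ago2ADH and 13246 in wild type, which is 33.3% in Ago2ADH and 59.98% in wild type (log2 ratio -1.29, -1.34 to -1.24). The end at 22 was therefore the more common in wild type and the end at 21 the more common in Ago2ADH.

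**Figure D4:**
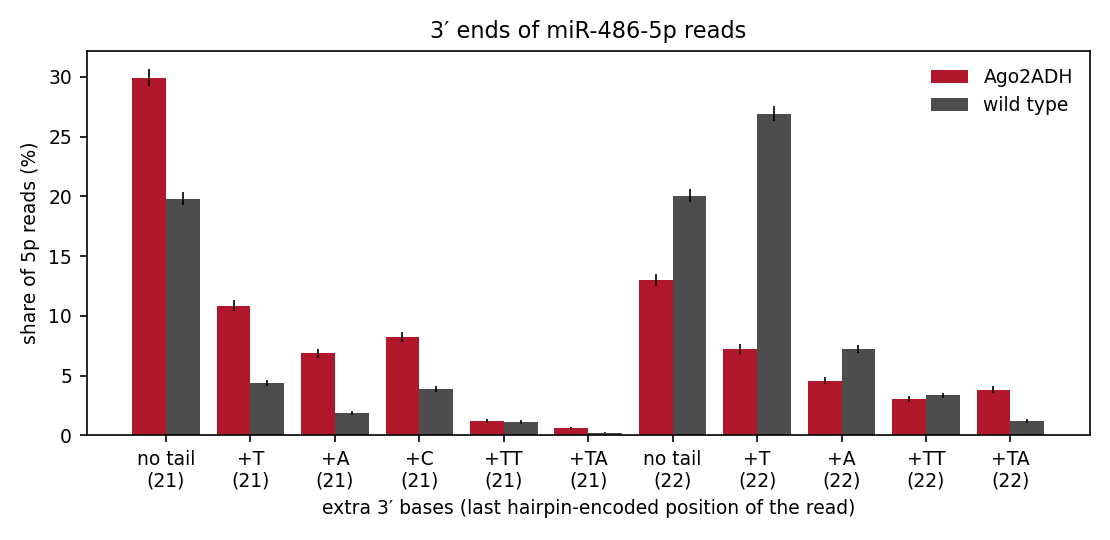
Share of main-start miR-486-5p reads (up to 2 extra bases, in percent) by extra 3′ bases and, in brackets, the last hairpin-encoded position, for Ago2ADH (red) and wild type (grey); bars are 1 library each and error bars are Clopper-Pearson 95% intervals for counting error. At position 22 plus T, Ago2ADH stands at 7.24% and wild type at 26.9%, whereas at position 21 without a tail Ago2ADH stands at 29.9% and wild type at 19.8%.

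**Figure D5:**
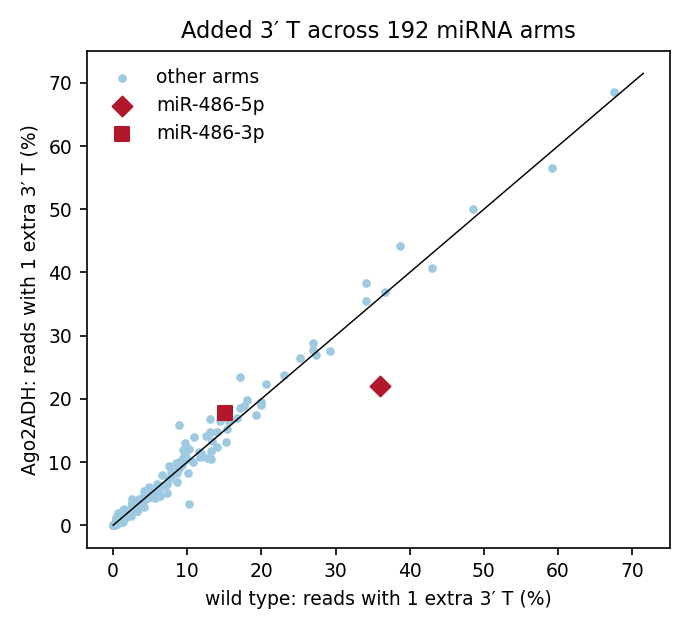
Share of reads with 1 extra 3′ T, in percent, in Ago2ADH (vertical axis) against wild type (horizontal axis) for 192 miRNA arms with 500 or more reads in each library; the line marks equal shares. miR-486-5p (21.98% in Ago2ADH, 35.9% in wild type) lies farthest below the line, and miR-486-3p (17.7% in Ago2ADH, 15.1% in wild type) lies above it. The difference of miR-486-3p, 2.68 percentage points, was the 8th highest of the 192 arms.

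On the 3p strand, most reads with a single T ended at position 63 before the T. The read ending at 63 plus T shown above had 1726 reads in Ago2ADH and 208 in wild type (log2 ratio 3.05, interval 2.84 to 3.27). Reads ending at 64 plus T had 204 in Ago2ADH and 123 in wild type (log2 ratio 0.73, interval 0.40 to 1.06). Tails of up to 2 bases were on 26.4% of 3p reads ending at 63 in Ago2ADH and 21.1% in wild type, and on 10.4% of those ending at 64 in Ago2ADH and 22.8% in wild type.

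A miscalled last base would also look like an added base. Among 22-nt 5p reads with 1 mismatch to the hairpin, those with the mismatch at any 1 of positions 2 to 21 were at most 0.756% of the exact 22-nt read in Ago2ADH and 1.11% in wild type. Those with the mismatch at position 22 were 199.4% of it in Ago2ADH (4221 reads) and 50.5% in wild type (2235 reads).

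Most 5p reads cannot be assigned to Mir486 or Mir3107, because 7506 of 7562 exact reads in Ago2ADH and 9562 of 9684 in wild type match both hairpins. Of the rest, 37 reads in Ago2ADH and 87 in wild type match Mir486 alone (log2 ratio -1.24, interval -1.83 to -0.66), and 19 in Ago2ADH and 35 in wild type match Mir3107 alone (-0.88, -1.77 to -0.04). Mir3107 thus had 33.9% (21.8 to 47.8) of these few 5p reads in Ago2ADH and 28.7% (20.9 to 37.6) in wild type, and an added base that equals the base of either hairpin cannot be told apart. A 3p read can be assigned when it reaches position 63, where the hairpins differ. These reads are shown with the differing bases in capitals.
Mir486, 21 nt: cggggcagctcagtacaggaT
Mir3107, 21 nt: cggggcagctcagtacaggaC
Mir486, 22 nt: cggggcagctcagtacaggaTG
Mir3107, 22 nt: cggggcagctcagtacaggaCC
Reads that match Mir486 alone numbered 7963 in Ago2ADH and 1652 in wild type (log2 ratio 2.27, interval 2.19 to 2.34). Reads that match Mir3107 alone numbered 55 in Ago2ADH and 7 in wild type (log2 ratio 2.97, interval 1.83 to 4.35). Mir3107 made up 0.686% (0.517 to 0.892) of the assignable 3p reads in Ago2ADH and 0.422% (0.170 to 0.867) in wild type, and these intervals overlap. A 21-nt read with a final C may also be the 20-nt read with an added C, and a 21-nt read with a final T the 20-nt read with an added T, which cannot be told apart.

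Fragments of the host mRNA gave no difference beyond counting error. Ank1 had 193 fragments in Ago2ADH and 230 in wild type, which is 27.4 per 1000000 reads of all classes in Ago2ADH and 30.3 in wild type (log2 ratio -0.14, interval -0.43 to 0.14). Such fragments are short pieces of mRNA in a 19 to 30 nt fraction, and how far they follow mRNA levels was not tested.

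Arms of other miRNAs listed for the red cell lineage are given for comparison. Which cells of the liver their reads came from was not tested. Of 29 arms in an erythroid list that includes miR-486, 23 had 100 or more reads, of which 3 were called higher and 1 lower. Without miR-486, 21 of 27 arms had as many reads, of which 2 were called higher and 1 lower. These stand beside the 5.67 and 0.85 percent of all arms given above. The median log2 ratio was 0.02 with or without miR-486, against 0.15 over all arms. With median-of-ratios scaling the median of the full list turned to -0.13. The other arms that rose were miR-144-3p, with 24408 reads in Ago2ADH and 10046 in wild type (log2 ratio 1.28), and miR-210-3p, known for its induction by low oxygen, with 9479 in Ago2ADH and 4572 in wild type (1.05). The call of miR-210-3p was lost with median-of-ratios (0.90), TMM (0.91), totals without the most abundant arms (0.85) and totals without miR-451 (0.87). The arm that fell was miR-451-5p (-6.23). The tested arms without a call had log2 ratios between -0.65 (miR-15b-5p) and 0.95 (miR-96-5p).

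mRNA fragments of red cell genes were fewer in Ago2ADH. Of 30 listed erythroid genes 23 had 50 or more fragments, of which 13 were lower beyond counting error and 1, the transferrin receptor gene Tfrc (229 in Ago2ADH, 178 in wild type), was higher. Among all 5913 mRNAs with as many fragments the percentage lower was 7.17 and the percentage higher 7.88, and the erythroid median log2 ratio was -0.49. The globin gene Hba-a2 had 5225 fragments in Ago2ADH and 9129 in wild type (log2 ratio -0.70), and Hbb-b2 had 2106 in Ago2ADH and 3413 in wild type (-0.59), both from families whose copies share reads. The anion exchanger gene Slc4a1 (-0.61), the membrane skeleton gene Epb4.1 (-0.58) and the mitochondrial iron carrier gene Slc25a37 (-0.24) were also lower. The 14 erythroid markers, 11 of which had any fragment, summed to 8297 fragments in Ago2ADH and 13852 in wild type (-0.63). Most of these fragments were of Hba-a2 and Hbb-b2. Of the 9 markers with 50 or more fragments, 6 were lower beyond counting error and 1, Tfrc, was higher. The sum stands beside a log2 ratio of -0.36 for exact miR-486-5p reads and 2.30 for miR-486-3p. The 13 hepatocyte markers summed to 98253 in Ago2ADH and 102355 in wild type (0.05), of which 7 were lower and 3 higher beyond counting error, and 6 markers of other blood cells, 5 of which had any fragment, to 347 in Ago2ADH and 371 in wild type (0.01). The part of cell composition in the level of miR-486-5p was not tested.

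Among genes named in the literature as targets of miR-486, 0 of those with 50 or more fragments were lower beyond counting error. Of 10 listed genes 7 had 50 or more fragments, of which 1 was higher beyond counting error, beside 7.17 percent lower and 7.88 percent higher among all mRNAs. The transcription factor gene Foxo1 had 240 fragments in Ago2ADH and 235 in wild type (log2 ratio 0.14), and the growth factor receptor gene Igf1r had 186 in Ago2ADH and 193 in wild type (0.06). The kinase gene Pim1 was the one that was higher, with 81 in Ago2ADH and 58 in wild type (0.59, 0.09 to 1.10). Sirt1 had 22 in Ago2ADH and 38 in wild type (-0.68), Smad2 had 39 in Ago2ADH and 45 in wild type (-0.10), and Max had 53 in Ago2ADH and 47 in wild type (0.28), all with intervals that included 0. With so few fragments a gene, differences within these intervals were not detectable.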

How the data were processed

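Small RNA of 19 to 30 nt from fetal liver was sequenced from 1 Ago2ADH and 1 wild type library, grouped by their genotype labels. The authors deposited raw read counts, 1 per distinct sequence and library, with the number of genome matches, a class and a name, per the file headers. Which aligner, genome build and trimming made the table is not given in the sources used here. No column belongs to another sample.

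Read counts were matched exactly to 1174 hairpins annotated in GENCODE release M21 (GRCm38), which placed 99.9% of miRNA reads in Ago2ADH and 99.8% in wild type. A read's arm was set by its middle. Tailed reads were unclassified sequences without a genome match that equal a hairpin over 16 or more bases and then carry 1 to 4 extra bases, with up to 2 used unless stated. Ratios have exact conditional binomial intervals, shares Clopper-Pearson intervals and odds ratios Woolf intervals with 0.5 added per count. miRNA counts were scaled to miRNA reads and mRNA fragments to all reads. The strand of mRNA fragments is not given. Pairing was computed with ViennaRNA 2.7.2, and statistics with Python 3.11.15, scipy 1.17.1, pandas 2.3.3 and numpy 2.4.6. The size rule was checked on simulated data with counting error only, scaled to the arms left unchanged. That check does not cover spread between libraries or the scaling to all miRNA reads used here.

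The alternatives were scaling by TMM (edgeR 4.0.16 in R 4.3.3, on the counts), by median-of-ratios or by all reads, scaling to miRNA totals without the 13 arms that were among the 10 most abundant of either library or without miR-451, reads of 20 to 24 nt, reads with 1 genome match, distinct sequences, tailed reads, the most abundant read, and other read minimums and fold limits. Tails of up to 4 bases, reads with 2 genome matches, the hairpin total with tails, and the calls of erythroid arms by scaling were added after the data were seen.

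miR-486 and the lists were chosen with earlier results of these data known. The forms named are the 6 with most reads per arm in either library and forms of another start with 50 or more reads. Other miRNAs named are the 5 nearest in arm odds, the 5 with the longest pairing, the 3 arms with the nearest ratio to each strand and called erythroid arms. Of the mRNAs, the 6 erythroid ones with most reads and targets with 20 or more reads are named, except for an item that is not reported here. Tfrc, the muscle miRNAs, miR-299-5p and the ends of the range of uncalled erythroid arms were named after their values were seen.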

Additional observations from a re-analysis of the deposited data

How the results depend on the processing

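With 1 library per genotype no library could be left out. No paired analysis was possible because the groups share fewer than 2 replicate numbers. Depth limits the Mir3107, flank and target values. miR-486-3p stayed above the 2-fold limit under every alternative listed here but distinct sequences, which are too few for the minimum of 100. Its log2 ratio was 2.41 with all reads, 2.15 with median-of-ratios, 2.16 with TMM, 2.10 without the most abundant arms, 2.12 without miR-451, 2.49 for its main read and 0.40 for distinct sequences. For miR-486-5p the same settings gave -0.25, -0.51, -0.50, -0.56, -0.53, 0.16 and -0.41, so its main read turned the sign. Other settings gave -0.41 (20 to 24 nt), -0.51 and -0.45 (1, or 1 or 2, extra bases) and -1.13 (1 genome match, from 56 reads in Ago2ADH and 122 in wild type), which met the size rule. The hairpin total gave 0.64 with all reads, 0.38 with median-of-ratios, 0.39 with TMM, 0.33 without the most abundant arms, 0.35 without miR-451, 0.48 at 20 to 24 nt, 0.17 with extra bases, 2.18 with 1 genome match, which leaves out nearly all 5p reads, and -0.00052 for distinct sequences. The log2 odds ratio of the 3p share was 2.84 and 2.76 with 1, or 1 or 2, extra bases, 3.39 with 1 genome match, 2.93 with 2, 2.33 for the main reads and 0.80 for distinct sequences. Arms called higher numbered 13 with median-of-ratios, 13 with TMM, 10 without the most abundant arms, 11 without miR-451, 0 for distinct sequences, 34 and 12 at minimums of 10 and 500 reads, and 59 and 7 at 1.5-fold and 3-fold limits. Arms called lower numbered 5 without the most abundant arms, 5 without miR-451, 0 for distinct sequences, 5 at a minimum of 10 reads and 13 at 1.5-fold. The erythroid miRNA median was -0.13 with median-of-ratios and -0.15 without miR-451. These scalings subtracted 0.15 and 0.18 from every log2 ratio. Where no count of reads is named, the cause was not tested.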
